A study of Mus musculus with 6 samples.

Results

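Expression of 9 genes that handle cellular iron was followed in mouse embryonic fibroblasts (MEFs) after acute knockdown of Yme1l. The genes encode the iron exporter ferroportin (Slc40a1), proteins of iron uptake (Tfrc, Slc11a2 and Steap3), ferritin and its turnover receptor (Fth1, Ftl1 and Ncoa4), an iron regulatory protein (Ireb2) and the scaffold for iron-sulfur clusters (Iscu). They were found by name in a table of raw counts with 51499 loci, each at 1 locus, and all 9 were among the 14499 loci that held enough counts to be compared. The list was selected on the log2 fold change of Slc40a1 in this comparison, which was far below 0, so the values of the 9 genes in this comparison are a description. No p-value is given for them, and how many of them passed the threshold used for all loci is stated only beside the share of all loci that did.

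WT MEFs received Scr (scrambled) siRNA or Yme1l siRNA and were harvested for RNA-Seq 72 h later, with 3 independent cultures per group. Yme1l encodes YME1L, an ATP-dependent protease of the mitochondrial inner membrane, and the comparison asks which transcripts differ when it is depleted for a short time. The labels call the cells 3T3 immortalized, whereas the methods describe WT MEFs as clones from loxP-flanked Yme1l animals that were immortalized with SV40 large T antigen, and both groups share this genotype. Since the cultures are of 1 cell line, the spread between them and every p-value cover culture and library preparation and not different animals.

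Libraries held between 37260605 and 45205207 counts. Transcripts of the targeted gene, listed as Yme1l1, stood at 170, 171 and 171 CPM (counts scaled to a library of 1e6) with Scr siRNA and at 31.6, 23.4 and 45.0 CPM with Yme1l siRNA, a log2 fold change of -2.36 (SE 0.20, edgeR quasi-likelihood test, adjusted p = 3.87e-05). Replicate 3 stood apart in both groups. For Scr siRNA the chi-square of its counts, divided by the degrees of freedom, was 75.5 and 59.8 against replicates 1 and 2 and 10.4 between those 2, and for Yme1l siRNA the values were 49.0 and 72.2 against 28.3. Fits without each library are therefore given as ranges, and values that turn on 1 of these libraries are also given without it.

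Iron enters most cells bound to transferrin, which is taken up by the transferrin receptor, is released and reduced in endosomes and crosses into the cytosol, where it is used by mitochondria, stored in ferritin or exported by ferroportin. Iron regulatory proteins bind a short hairpin, the iron-responsive element (IRE), when cells lack iron. In a 5' UTR this binding blocks translation, as for ferritin and ferroportin, and in the 3' UTR of the transferrin receptor it protects the mRNA from decay. Fibroblasts are not known as a main site of iron export, which is most active in macrophages, enterocytes and hepatocytes.

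The hairpins are shown because they are the sites through which iron regulatory proteins act on mRNAs of 4 of the 9 genes. Annotated transcripts of GENCODE M21 (mm10) were searched on the transcript strand for C, 5 bases, CAGTGN and 5 bases able to pair with the first 5, with G-U pairs allowed. The pattern was found in 4 of the 9 genes, in the 5' UTR of Slc40a1, Fth1 and Ftl1 and in the 3' UTR of Tfrc. Each is printed 5' to 3' as DNA with the loop CAGTGN in capitals.
Slc40a1 5' UTR, chr1:45925465-45925493, minus strand: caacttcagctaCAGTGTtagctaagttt
Fth1 5' UTR, chr19:9982732-9982760, plus strand: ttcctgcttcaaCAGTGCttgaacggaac
Ftl1 5' UTR, chr7:45459779-45459807, minus strand: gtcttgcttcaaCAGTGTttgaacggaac
Tfrc 3' UTR, chr16:32631219-32631247, plus strand: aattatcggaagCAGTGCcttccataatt
Tfrc 3' UTR, chr16:32631598-32631626, plus strand: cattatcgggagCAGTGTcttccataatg
Tfrc 3' UTR, chr16:32631663-32631691, plus strand: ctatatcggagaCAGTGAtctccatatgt
Tfrc 3' UTR, chr16:32631710-32631738, plus strand: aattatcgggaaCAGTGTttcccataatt
The 4 matches in Tfrc lie within 508 bases, and their number counts matches to this pattern, which can miss elements. The element is annotated in 1 of 4 coding transcripts of Slc40a1 that have a 5' UTR, in 4 of 5 of Fth1, in 1 of 2 of Ftl1 and in 1 of the 2 Tfrc transcripts with a 3' UTR. Among all genes, 0.148% of 20899 hold a match in a 5' UTR and 0.613% of 21028 hold one in a 3' UTR. No match in Slc11a2, Ireb2, Ncoa4, Steap3 or Iscu says only that these letters are not in their annotated transcripts, and some Slc11a2 mRNAs are known for a 3' UTR element of another form.

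At an adjusted p of 0.05 over all loci, 2 of the 9 genes were higher with Yme1l siRNA (Tfrc and Slc11a2) and 3 were lower (Slc40a1, Steap3 and Iscu), beside 58.0% of all tested loci called, 28.4% higher and 29.6% lower. The 3 values per group did not overlap for 6 of the 9, with 2 above and 4 below, where the same held for 65.4% of all loci, 31.9% above and 33.6% below. The median log2 fold change of the 9 genes was -0.20 and that of all tested loci 0.01. As the genes were chosen with this comparison known, nothing is read from these counts.

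**Figure D1:**
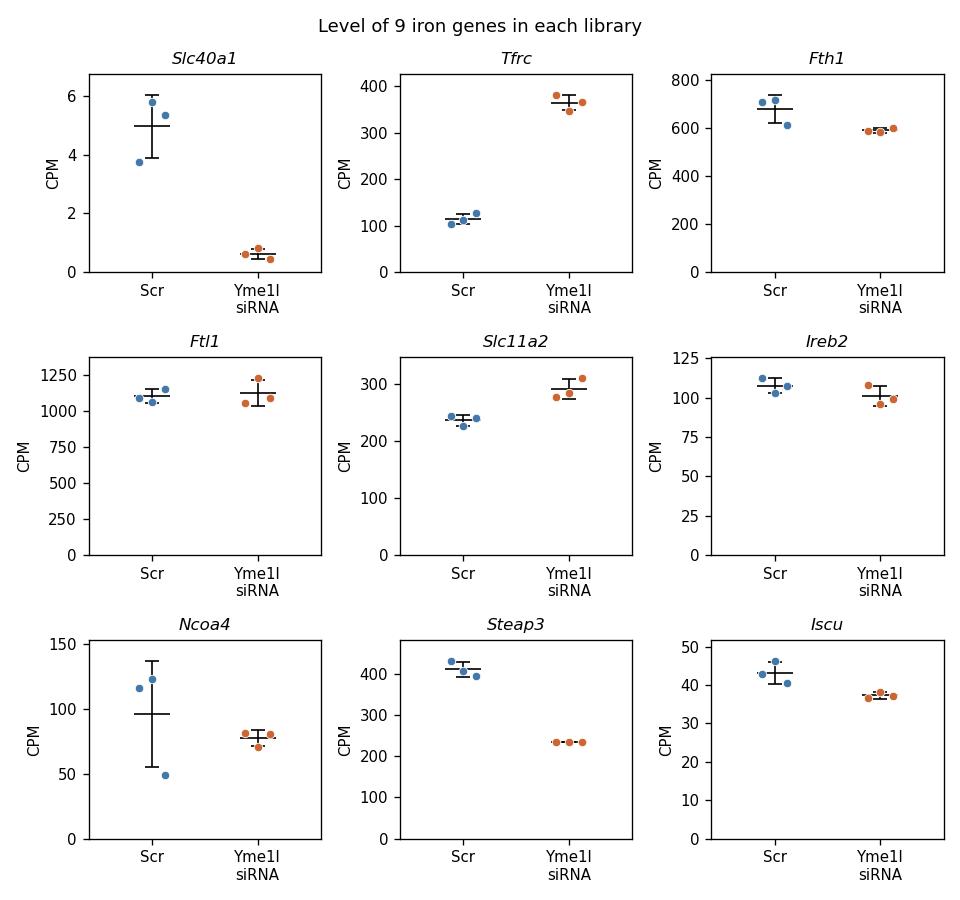
Level of the 9 iron genes in each library, in TMM-scaled CPM on an axis that starts at 0, for Scr siRNA (blue) and Yme1l siRNA (orange). Points are the 3 libraries per group, long dashes the means and bars ± SD; Slc40a1 and Tfrc lie apart between groups by the widest margins, Ftl1, Ireb2 and Ncoa4 overlap, and 1 Scr library of Ncoa4 sits at 48.9 CPM below all others.

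Slc40a1 (chr1:45908068-45926523, minus strand), which encodes the only known exporter of iron from mammalian cells, was the lowest of the 9 genes and differed the most. Scr libraries held 163, 209 and 226 of its counts, against 27, 35 and 19 after knockdown. Scaled to library size these were 3.76, 5.79 and 5.36 CPM with Scr siRNA against 0.609, 0.805 and 0.451 CPM with Yme1l siRNA. The highest library after knockdown thus lay far below the lowest control library. Means were 4.97 ± 1.07 and 0.622 ± 0.178 CPM (SD, n = 3), 7.95-fold lower after knockdown with a log2 fold change of -2.99 (SE 0.27). This was the log2 fold change of rank 31 from the lowest among all 14499. Leaving out each library in turn gave -3.21 to -2.81. In these bulk libraries, fewer cells that express a gene cannot be told apart from less of its RNA per cell.

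The loci whose levels followed that of Slc40a1 most closely over the 6 libraries were Vtcn1, Sgk3, Bmf, Abca1 and Il33. Likeness was the root-mean-square distance between log2 CPM values centred on each locus's mean, over 11543 loci, so it is set mainly by the size of the difference between groups. Vtcn1, a B7 family ligand of T cells, was nearest with a distance of 0.147 and a log2 fold change of -2.79. Its levels were 4.04, 5.10 and 4.46 CPM with Scr siRNA and 0.676, 0.828 and 0.451 CPM with Yme1l siRNA. Distances were 0.211 for Sgk3, a serine/threonine kinase of endosomes, 0.223 for Bmf, a pro-apoptotic BCL2 family protein, 0.258 for Abca1, the cholesterol exporter, and 0.302 for Il33, an alarmin cytokine.

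Tfrc (chr16:32608920-32632794, plus strand), the transferrin receptor, differed in the opposite direction. Its counts were 4490, 4034 and 5331 with Scr siRNA and 16869, 15086 and 15421 with Yme1l siRNA. This corresponded to 104, 112 and 126 CPM against 380, 347 and 366 CPM. Every library after knockdown held more than every control library, with means of 114 ± 11.5 and 364 ± 16.7 CPM (SD, n = 3). The log2 fold change was 1.68 (SE 0.09), 3.20-fold higher, and ranked 514 from the highest of all loci. Without single libraries it stayed between 1.61 and 1.75.

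The ratio of receptor to exporter restates the values of Tfrc and Slc40a1 given above. Its denominator is the gene whose fall selected the list, with only 19 to 35 counts per library after knockdown. The gap between groups is therefore a description and no further result. There were 27.5, 19.3 and 23.6 counts of Tfrc per count of Slc40a1 in the Scr libraries. In the Yme1l siRNA libraries the ratio was 625, 431 and 812, without overlap.

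Slc11a2 (chr15:100387898-100425072, minus strand) encodes DMT1, which moves ferrous iron out of endosomes. Its levels were 244, 226 and 239 CPM with Scr siRNA and 276, 285 and 310 CPM with Yme1l siRNA. The groups did not overlap, but the margin was narrow, with a log2 fold change of 0.30 (SE 0.07) or 1.23-fold. Exons of Slc11a2 overlap those of Gm5475 on the other strand, and whether the counting used strand is not stated.

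Steap3 (chr1:120190757-120272705, minus strand) encodes the ferrireductase that reduces ferric iron in endosomes before DMT1 moves it. It stood at 430, 405 and 394 CPM with Scr siRNA and at 234 CPM in each of the 3 libraries with Yme1l siRNA. Both groups were thus tight and wide apart, with a log2 fold change of -0.81 (SE 0.07), 1.75-fold lower. The 3 uptake genes therefore did not differ in 1 direction: receptor and transporter were higher and the reductase lower.

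**Figure D2:**
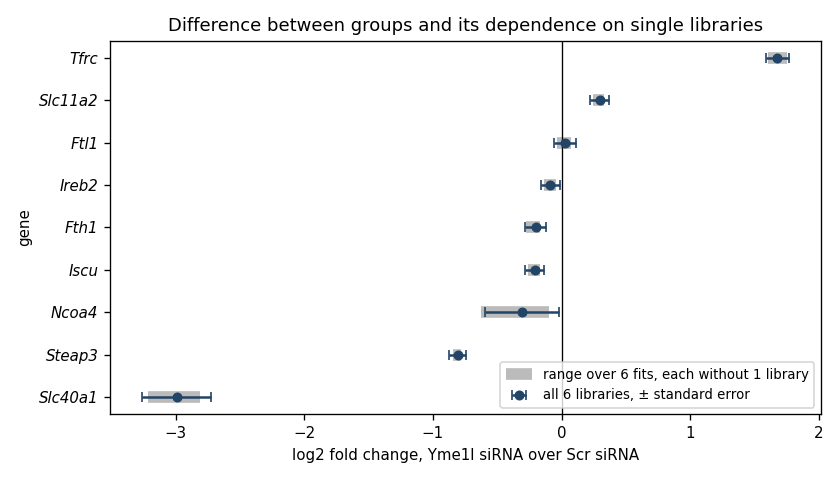
Log2 fold change of each gene, Yme1l siRNA over Scr siRNA, with all 6 libraries (points, bars ± SE) and its range over 6 fits that each leave out 1 library (grey). Slc40a1 and Steap3 lie left of 0 and Tfrc and Slc11a2 right of 0 over their whole range, Ftl1 spans 0, and the range of Ncoa4 is wide, from -0.63 to -0.09.

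The ferritin subunits were the most abundant of the 9 mRNAs and differed little in level. Fth1 (chr19:9980598-9985098, plus strand), the heavy chain with ferroxidase activity, was at 707, 719 and 611 CPM with Scr siRNA and at 586, 584 and 601 CPM with Yme1l siRNA. All 3 Scr libraries lay above all 3 Yme1l siRNA libraries, although Scr replicate 3 lay close to them. The log2 fold change was -0.20 (SE 0.08), and -0.28 (SE 0.07) without Scr replicate 3.

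Ftl1 (chr7:45457944-45459884, minus strand), the light chain that promotes mineral formation, had 1087, 1062 and 1154 CPM with Scr siRNA and 1054, 1228 and 1087 CPM with Yme1l siRNA. The groups overlapped, and the log2 fold change of 0.03 (SE 0.09) changed sign to -0.03 without Yme1l siRNA replicate 2. Exons of Ftl1 overlap Gm22133 on the same strand and Gm10252 on the other. Ftl1 also has near-identical copies, among them Ftl1-ps1 with 99.6% identity over 910 bases, so part of its reads could be counted at another locus. With the counts of the copies that align in the same direction added, the log2 fold change of Ftl1 was 0.04. There were 1.54, 1.48 and 1.89 counts of Ftl1 per count of Fth1 with Scr siRNA and 1.80, 2.10 and 1.81 with Yme1l siRNA. These ratios overlapped through Scr replicate 3 (1.89), and the other Scr ratios lay below all 3 after knockdown. Together the subunits took up 0.172, 0.172 and 0.178% of all counts with Scr siRNA and 0.167, 0.187 and 0.172% with Yme1l siRNA, so that their summed share overlapped between groups.

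Ncoa4 (chr14:32159865-32179855, plus strand) encodes the receptor that delivers ferritin to autophagosomes. It had 5005, 4427 and 2064 counts with Scr siRNA and 3614, 3066 and 3375 with Yme1l siRNA. In CPM these were 116, 123 and 48.9 against 81.5, 70.5 and 80.1. Scr replicate 3 lay below every library with Yme1l siRNA, while the other Scr libraries lay above all of them. The log2 fold change was -0.31 (SE 0.29) with all libraries and -0.63 (SE 0.09) without Scr replicate 3. The size of the Ncoa4 difference thus rests on this library, which also stood apart over all loci.

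Ireb2 (chr9:54863789-54912530, plus strand) encodes IRP2, an iron regulatory protein that is itself degraded when iron is plentiful. Levels were 112, 103 and 107 CPM with Scr siRNA and 108, 96.0 and 99.3 CPM with Yme1l siRNA. The groups overlapped, with a log2 fold change of -0.09 (SE 0.07).

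Iscu (chr5:113772748-113778288, plus strand) encodes the scaffold on which mitochondria build iron-sulfur clusters. It was at 42.8, 46.2 and 40.5 CPM with Scr siRNA and at 36.5, 38.3 and 37.2 CPM with Yme1l siRNA. The groups lay apart by a narrow margin, and the log2 fold change was -0.21 (SE 0.07). Iscu was counted above among the genes called lower, and the call was kept in only 1 of 6 fits that each leave out 1 library, the fit without Scr replicate 3. Adding its copy Gm16437, which is 98.3% identical over 421 bases, gave -0.22.

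Levels of different genes were compared per kb of annotated exon, with 3 libraries per group. With Scr siRNA, Ftl1 was highest at 822 ± 35.7 CPM per kb, then Fth1 (196 ± 17.1), Steap3 (71.7 ± 3.16) and Slc11a2 (37.2 ± 1.48). Iscu (19.8 ± 1.32) and Tfrc (18.4 ± 1.85) followed with overlapping values, as did Ireb2 (11.3 ± 0.498) and Ncoa4 (10.2 ± 4.35). The order of this last pair rests on Scr replicate 3, since Ncoa4 had 12.3, 13.1 and 5.22 CPM per kb and Ireb2 11.9, 10.9 and 11.3, so that without it Ncoa4 lay above Ireb2 and the pair did not overlap. Slc40a1 was last at 0.552 ± 0.119 CPM per kb (SD, n = 3). All other neighbours in this order had values that did not overlap.

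With Yme1l siRNA, Tfrc moved from place 6 to place 3 at 58.9 ± 2.69 CPM per kb, above Slc11a2 (45.7 ± 2.75). Steap3 moved from place 3 to place 5 at 40.9 ± 0.00599 CPM per kb. Slc40a1 remained last at 0.0691 ± 0.0197 CPM per kb, and no neighbours overlapped. Places depend on the measure of length. With the longest transcript, 7 of the 9 genes keep their place in Scr cultures and 9 of 9 after knockdown, and with the deposited FPKM, which combine the libraries of a group, 6 and 4 of 9 do. In those FPKM, Tfrc moves from place 7 to place 5, at 24.5 and 77.4, and after knockdown lies below Slc11a2 (90.1) and Steap3 (87.1), so its place above them does not hold there. Slc40a1 is last in both groups at 1.504 and 0.315.

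**Figure D3:**
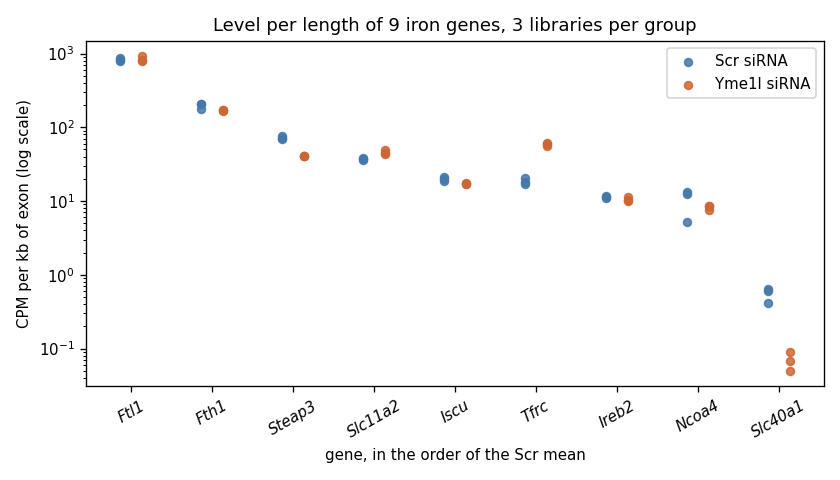
Level per length of the 9 iron genes in CPM per kb of exon, on a log axis, with 1 point per library for Scr siRNA (blue) and Yme1l siRNA (orange) and genes in the order of their Scr mean. Ftl1 lies near 822 and Slc40a1 near 0.552 CPM per kb with Scr siRNA, and Tfrc lies above Iscu, Slc11a2 and Steap3 with Yme1l siRNA, an order that the deposited FPKM do not share for Slc11a2 and Steap3.

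The other genes of iron handling were grouped in 9 lists, named in full by role below, and adjusted p-values are from edgeR's quasi-likelihood test over all loci. Of 84 tested genes other than the 9 described, 25 rose and 19 fell, that is 52.4% beside 58.0% of all loci, with a median log2 fold change of 0.06. Among them Trf, Abcb6, Nfs1, Isca1, Fdx1l and Ndor1 are counted at loci joined with other genes, so their values cannot be given to them alone. Of those named here, Slc39a8, Cp, Pcbp2, Herc2, Skp1a, Fbxl5, Cdc14a, Cdc42bpa, Lyrm4, Nubp1, Cpox, Uros, Ppox, Slc25a37, Slc48a1, Hmox2 and Flvcr1 overlap the span of an annotated gene on the other strand. Overlap of exons was not checked for them. Reads cannot be told apart only where exons overlap and counting ignored strand. Fam96a was not found under that name in the annotation, so its overlaps were not checked.

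Of 13 other genes of iron uptake, 3 rose and 1 fell. Slc39a8, a metal importer of the ZIP family, rose from 1.39 ± 0.152 to 5.33 ± 1.24 CPM (log2 fold change 1.93, SE 0.21, adjusted p = 0.000123, n = 3 per group). Lcn2, which carries iron bound to siderophores, rose (1.17, SE 0.43, adjusted p = 0.0424), although the call is lost without Scr replicate 2 or 3 or Yme1l siRNA replicate 3 (adjusted p = 0.0861, 0.108 and 0.138). Trf, transferrin, rose by 0.34 (SE 0.07, adjusted p = 0.00397) at a locus joined with Srprb and Gm20425. Slc22a17, a receptor for Lcn2, fell (-1.43, SE 0.40, adjusted p = 0.0145), a call lost without Scr replicate 1 (adjusted p = 0.0509).

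Beside Slc40a1, 5 genes of export and its control by hepcidin were tested and 1 passed. It was Cp, ceruloplasmin, the oxidase that works with ferroportin, which rose from 23.5 ± 6.58 to 50.7 ± 9.32 CPM (log2 fold change 1.11, SE 0.21, adjusted p = 0.00222). Hamp and Hamp2, which encode hepcidin, the hormone that removes ferroportin from the cell surface, had 0 counts in all 6 libraries. Of 3 other storage genes, Pcbp2, an iron chaperone of ferritin, rose from 614 ± 59.4 to 1147 ± 7.18 CPM (0.90, SE 0.09, adjusted p = 6.52e-05), and Herc2, the ligase that degrades Ncoa4, fell by 0.36 (SE 0.13, adjusted p = 0.0388). The Herc2 call is lost without Scr replicate 2 or 3 or Yme1l siRNA replicate 1 or 2 (adjusted p = 0.0502, 0.0922, 0.0733 and 0.116).

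Beside Ireb2, 4 genes of iron regulatory proteins and their turnover were tested and 2 fell. These were Skp1a (-0.56, SE 0.08, adjusted p = 0.000622) and Fbxl5 (-0.16, SE 0.06, adjusted p = 0.0462), subunits of the ligase that degrades iron regulatory proteins. The Fbxl5 call is lost whichever library is left out, with an adjusted p of 0.0521 without Scr replicate 3 and 0.129 without Scr replicate 1 as the extremes, and by DESeq2 (0.0897). Aco1, the other iron regulatory protein, had a log2 fold change of 0.16 (SE 0.08, adjusted p = 0.129).

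Of 5 tested mRNAs known for an IRE outside the 9 genes, 1 rose and 3 fell, with a median log2 fold change of -0.51. Cdc14a, a phosphatase known for an element in its 3' UTR, rose by 0.83 (SE 0.12, adjusted p = 0.000446). Epas1, the hypoxia factor HIF-2α known for an element in its 5' UTR, fell by 0.67 (SE 0.14, adjusted p = 0.0038). Cdc42bpa, a kinase of the cytoskeleton, and Pfn2, a profilin that binds actin, fell by 0.53 and 0.51 (SE 0.08 and 0.10, adjusted p = 0.000718 and 0.00228). The strict pattern described above was not found in annotated transcripts of Cdc14a, Epas1, Cdc42bpa or Pfn2. The search cannot tell an element of another form from one absent in these transcripts. Over all genes that hold it other than the 9, 10 of 24 tested genes with a 5' UTR match rose and 6 fell, and 33 of 97 with a 3' UTR match rose and 34 fell, beside 28.4% of all loci that rose and 29.6% that fell.

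Around Iscu, 4 of 20 other genes of mitochondrial cluster assembly rose and 5 fell (median -0.01). Hspa9, the chaperone that releases clusters from Iscu, rose from 829 ± 57.1 to 1485 ± 77.0 CPM (log2 fold change 0.84, SE 0.08, adjusted p = 7.63e-05). Its co-chaperone Hscb fell by 0.78 (SE 0.11, adjusted p = 0.000463), as did Lyrm4, a partner of the cysteine desulfurase, by 0.71 (SE 0.16, adjusted p = 0.00453). Of 11 cytosolic assembly genes 4 rose and 1, Glrx3, fell (-0.68, SE 0.11, adjusted p = 0.000841). Those with the largest rise were Ciao1 and Fam96a, of the complex that targets clusters to client proteins, and Nubp1, a scaffold, at 0.33, 0.32 and 0.24 (SE 0.06, 0.07 and 0.06).

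Mitochondrial iron import and heme synthesis had 8 of 13 tested genes that rose and 4 that fell, 92.3% of the list beside 58.0% of all loci. It is the highest share among 9 small lists chosen with earlier results known, and nothing is read from it. Abcb6, among those that rose, is counted at a locus joined with Atg9a. The iron importer Slc25a37 rose from 150 to 224 CPM (0.58, SE 0.08, adjusted p = 0.000479), and Cpox, a late enzyme of the pathway, by 0.85 (SE 0.20, adjusted p = 0.00551). Fech, which inserts iron into heme, fell from 90.02 ± 3.74 to 52.8 ± 4.03 CPM (-0.77, SE 0.08, adjusted p = 7.44e-05). The enzymes Uros and Ppox fell by 0.59 and 0.58 (SE 0.13 and 0.09). In the list of heme breakdown and transport 3 of 10 rose and 2 fell, led by Flvcr2 (2.28, SE 0.22, adjusted p = 5.9e-05), a transporter of the FLVCR family, and by Slc48a1, which carries heme out of endolysosomes (1.11, SE 0.09, adjusted p = 2.39e-05). Flvcr1 rose by 0.51 (SE 0.09) and Hmox2, the constitutive heme oxygenase, fell by 0.70 (SE 0.06). Hmox1, the inducible heme oxygenase that frees iron, had a log2 fold change of 0.08 (SE 0.12, adjusted p = 0.572).

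Markers of the labelled and of other cell types were read beside these values. Of 8 tested fibroblast markers 7 fell, beside 29.6% of all loci that fell and 28.4% that rose. Vim did not pass (log2 fold change -0.19, edgeR quasi-likelihood test, adjusted p = 0.12). The summed level of the 10 listed went from 33550 to 40738 CPM with Scr siRNA to 18039 to 22449 CPM with Yme1l siRNA, with Thy1 and Lum at or near 0 throughout. Macrophages and erythroid cells are known for high Slc40a1 and Tfrc, respectively. Of 10 leukocyte markers Adgre1, Cx3cr1 and Tyrobp had no counts and Ptprc and Spi1 were near 0, while Csf1r rose from 123 to 205 CPM and carried most of a summed level of 140 to 163 CPM with Scr siRNA and 215 to 253 CPM with Yme1l siRNA. Cd14 was present in both groups, with means of 28.5 CPM with Scr siRNA and 30.1 CPM with Yme1l siRNA. The 8 erythroid markers summed to at most 1.11 CPM in any library, with Hbb-bs, Hbb-bt and Epb42 among those at 0. Of 5 endothelial markers Tek and Kdr rose and Emcn was at 0 (3.79 to 4.08 CPM summed with Scr siRNA and 5.68 to 7.81 CPM with Yme1l siRNA), and the 5 epithelial markers summed to at most 0.529 CPM. The part of the lower fibroblast markers in the values of the iron genes was not tested.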

How the data were processed

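Counts per locus of 6 libraries (poly(A) RNA, TruSeq stranded, 100-nucleotide paired ends) were deposited by the authors without normalization. Per the methods and the submitters' notes, reads were mapped to mm10 (GRCm38) with HISAT2 2.0.4, assembled with StringTie 1.3.3 and compared with Cuffdiff 2.2.1, but the counting program and its use of strand are not given in the sources used here. The authors also deposited FPKM per group, used here only for the order of levels. Their own comparison (a log2 fold change, a test score, p-values and q-values, all deposited by the authors) was not used. All 6 count columns were mapped by their labels, and 0 were left unmapped.

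From the counts, edgeR 4.0.16 (R 4.3.3) computed TMM-scaled CPM, log2 fold changes and quasi-likelihood tests over 14499 loci kept by filterByExpr (minimum 10 counts, 15 in total), without covariates, with Benjamini-Hochberg adjustment over all loci at 0.05 (biological coefficient of variation 0.131). The SE was taken from the F statistic, as the size of the log2 fold change over its root. No 2 libraries were alike within sampling noise, so none was merged. Libraries held between 37260605 and 45205207 counts. Alternatives were other scalings and filters, DESeq2 1.42.0, limma-voom 3.58.1, a replicate block and leaving out each library. Copies were searched with BLAST 2.17.0 (at least 90% identity over 300 bases). Code was tested on simulated data.

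The 9 genes and the lists were chosen with earlier results of these data known. Named in the text are the 9 genes, Yme1l1, up to 4 called genes per list with the largest log2 fold change among loci at or above a mean log2 CPM of 1, and the 5 loci most like Slc40a1. Genes named beyond this rule (Aco1, Slc25a37, Hmox1, Hamp and Hamp2, for their role) were chosen after their values were seen. Some genes that the rule or the lists hold are not reported here.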

Additional observations from a re-analysis of the deposited data

How the results depend on the processing

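The log2 fold change of Slc40a1 stayed between -3.21 and -2.81 over all alternatives, and Tfrc, Slc11a2 and Steap3 kept their direction in each. With all libraries, 3 of the 9 genes were called lower and 2 higher, beside 29.6% and 28.4% of all tested loci. When each library was left out, between 2 and 5 were called lower and 2 higher throughout. The 5 were found without Scr siRNA replicate 3, a fit that adds Fth1 and Ncoa4. Shares of all loci in those fits are not given here, so nothing is read from these counts. Ftl1 changed sign without Scr siRNA replicate 2 (-0.0032) and without Yme1l siRNA replicate 2 (-0.0327), with a range of -0.0327 to 0.0733 over these fits. Iscu was not called with upper-quartile scaling, library totals, all loci with a count, a mean of at least 50 counts or DESeq2, nor in 5 of 6 fits without 1 library; these causes were not tested. Deviations of libraries with the same replicate number correlated at 0.04, 0.12 and 0.19 over all loci. These low values cannot decide whether the numbers pair the cultures, since genes can differ in this. Fitting the number as a block gave -2.99 for Slc40a1 and 2 higher and 3 lower of the 9, the same numbers as without it. The block moved the SE of single genes both ways. It was lower for Cp (from 0.212 to 0.086) and Cpox (from 0.195 to 0.089) and higher for Lcn2 (from 0.426 to 0.466). Of the called list genes that were refitted, Lcn2 and Fbxl5 lost their call under the block (adjusted p = 0.0704 and 0.0547). Scaling by library totals moved the median of all loci from 0.01 to 0.07. Over the 84 other iron genes, between 21 and 29 were called higher and between 13 and 20 lower. In the main fit 28.4% of all tested loci were higher and 29.6% lower, and nothing is read from these ranges. Slc40a1 rests on 19 to 35 counts per library after knockdown.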

Other observations

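Ftl1-ps1, a copy of the ferritin light chain gene with 99.6% identity to Ftl1 over 910 bases, had 190, 202 and 273 counts with Scr siRNA and 800, 800 and 420 counts with Yme1l siRNA. Its groups did not overlap, and its log2 fold change was 1.496 (SE 0.25, edgeR quasi-likelihood test, adjusted p = 0.000984), where that of Ftl1 itself was 0.03. A further copy, Gm15590, with 99.1% identity over 552 bases, had 100, 23 and 76 counts with Scr siRNA and 13, 26 and 67 with Yme1l siRNA, which overlap. Reads of Ftl1 that were placed at its copies cannot be told apart from transcripts of the copies in these counts. Both loci were looked at after their values were seen.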
